A study of Mus musculus with 36 samples.

Results

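Bone resorption and bone formation are coupled. Osteoclasts, the cells that resorb bone, release or display ligands that act on the osteoblast lineage, and osteoblasts and osteoclast precursors carry the receptors. The 9 genes described here, of 30284 genes in the files, were taken by their symbols: 6 on the ligand side (Sphk1, Cthrc1, Sema4d, Slit3, Pdgfb and Lif) and 3 receptors (S1pr1, S1pr2 and Pdgfrb). All 9 were present, and each value is the sum over the gene's listed transcripts.

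RNA of primary bone cells from Mir324-null mice and from wild-type controls (WT), all 20 weeks old, was sequenced in 36 libraries, 6 in each of 6 groups. Bone marrow macrophages (BMM) were marrow cells cultured with M-CSF, a macrophage growth factor, at 30 ng/mL over 5 days. Cultures labelled osteoclasts (OC) received M-CSF at 30 ng/mL and RANK-L, the cytokine that drives osteoclast formation, at 50 ng/mL for 5 days. Cultures labelled osteoblasts (OB) had grown out of bone chips and spent 18 days in osteogenic medium, with β-glycerophosphate at 2 mM and ascorbic acid at 50 µg/mL. How the null allele was made, whether the controls were littermates and whether replicates came from separate mice are not given in the sources used here. The p-values therefore measure only the spread between these libraries, which may in part be technical.

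Sphingosine-1-phosphate (S1P) is made by sphingosine kinases and acts through G protein-coupled receptors. S1pr1 draws osteoclast precursors out of bone towards the blood, and S1pr2 opposes this movement. Semaphorin 4D holds back osteoblasts through plexin-B1, Slit3 acts through Robo receptors, PDGF-BB through PDGFRβ, and LIF through its receptor together with gp130. Cthrc1 is a secreted protein that recruits bone-forming cells and binds Wnt receptor complexes.

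Library totals ran from 14118972 to 26347581 estimated counts. Levels below are CPM, counts per library after scaling to 1 shared size. The summed CPM of 8 osteoclast markers (Ctsk, Acp5, Calcr, Mmp9, Ocstamp, Dcstamp, Atp6v0d2 and Oscar) had a median of 30454 in WT OC (range 29056 to 31527). In null OC the median was 463 (339 to 708), beside 109 in WT BMM and 269 in null BMM, and Calcr had at most 3 counts in every null OC library. The cultures labelled null OC thus held osteoclast markers at a level far under that of WT OC. The OB cultures held osteoclast markers too, with medians of 4685 in WT and 5459 in null, next to 7 osteoblast markers at 57590 and 103980 and 6 macrophage markers at 2547 and 1902. In null BMM and null OC the osteoblast markers summed to medians of 73.1 and 87.0, against 18.7 and 13.6 in the WT groups, and no null library overlapped the WT libraries of its culture. Megakaryocyte and platelet markers had medians of 1245 and 993 in null BMM and null OC, against 217 and 31.4 in WT, and neutrophil markers 10.2 and 7.01 against 0.257 and 0.133. Only 2 of the 4 megakaryocyte and platelet markers could be tested in BMM and in OC, and both were higher in null. Gp9, of that list, had at most 3 counts in every BMM library. The neutrophil difference was that of S100a8 alone. The other markers of that list (S100a9, Ly6g, Elane and Mpo) had at most 3 counts in every marrow library. Endothelial markers overlapped between genotypes in each culture, and pericyte and smooth muscle markers had medians of 1259 and 1394 in WT OB and null OB. In BMM the latter summed to 5.95 to 11.96 in WT and 18.3 to 24.2 in null, without overlap, and in OC to 18.3 to 21.8 and 11.9 to 30.5. Of the 2 pericyte and smooth muscle markers that could be tested in BMM, 1 was higher and 1 lower in null. Summed macrophage markers were at 7083 to 8002 in WT BMM and 10660 to 12305 in null BMM, although 4 of the 6 were lower and 1 was higher in null BMM by the test. Lymphocyte and adipocyte markers stayed at or under a summed 0.728 CPM in every library. With bulk RNA, fewer cells of a type and less RNA per cell cannot be told apart.

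The gene removed in the null mice makes 2 mature microRNAs from chromosome 11. They are shown because their seeds (bases 2 to 8, in capitals) define which transcripts could be direct targets.
mmu-miR-324-5p (chr11:70012060-70012082, plus strand): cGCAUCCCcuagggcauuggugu
mmu-miR-324-3p (chr11:70012095-70012114, plus strand): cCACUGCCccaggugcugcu
Mir324 expression was not analysed here and gives no check of the genotypes. The sequences are from RefSeq (GRCm38.p6).

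The DNA match to the miR-324-5p seed, GGGATGC, was found in the longest annotated 3′ UTR of 0 of the 9 genes, and in 8.19% of 21153 genes with an annotated 3′ UTR. The match to the miR-324-3p seed, GGCAGTG, was found in 1 of the 9, Lif, and in 14.1% of all genes. The Lif match lies at chr11:4271364-4271370 on the plus strand (GRCm38), and starts at base 2030 of the 3180 bases of the 3′ UTR of transcript Lif-202. It is shown in capitals with its flanks.
Lif 3′ UTR: agccaagctggGGCAGTGgctgactacaga
A match is a description of letters and not a site shown to be used. The longest 3′ UTR need not be that of the main transcript. For Sema4d it was that of Sema4d-203, which held 0.303% to 1.92% of the gene's TPM (group means). Sema4d-202 held 86.8% to 91.35%, and its 3′ UTR was not searched on its own.

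**Figure D1:**
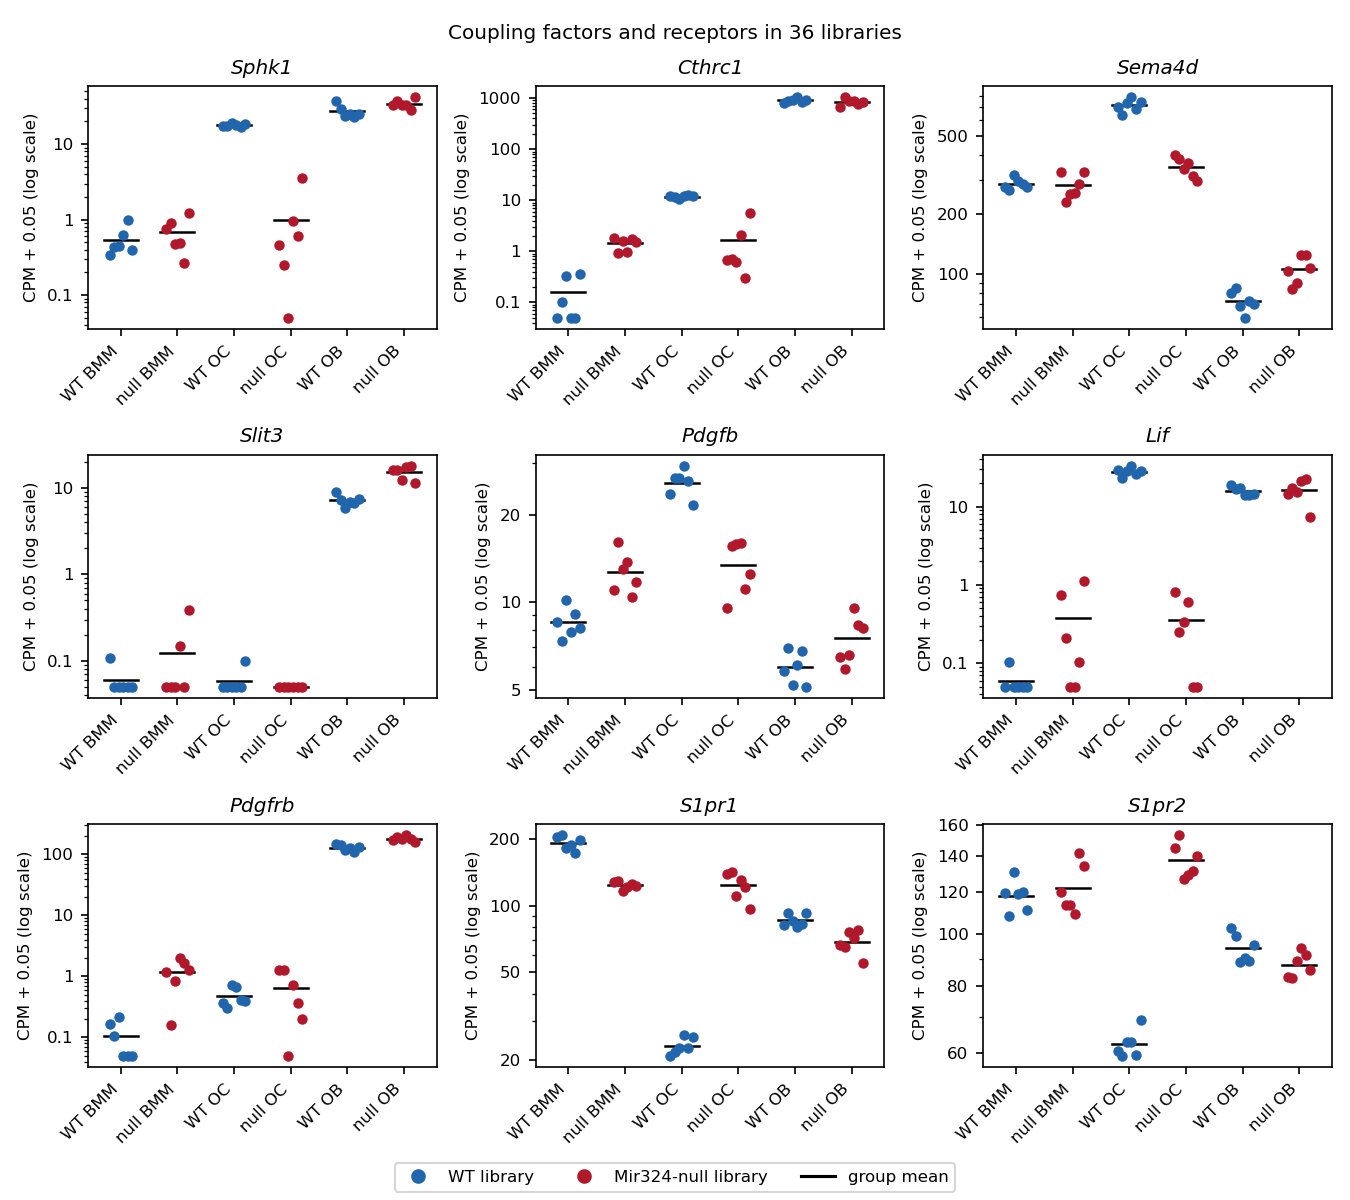
Each panel plots 1 gene, with the level in CPM plus 0.05 on a log axis for every library of the 6 groups; points are libraries and black lines group means. Sphk1, Cthrc1, Sema4d, Pdgfb and Lif stood higher in WT OC than in any other marrow group, S1pr1 and S1pr2 stood lowest there, and Slit3 and Pdgfrb were high only in the OB groups.

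The first comparison asked how the genes responded to RANK-L in WT cells. All 5 ligand-side genes that could be tested rose from BMM to OC, and both S1P receptors fell. Of the 9 genes, 8 passed the filter on low counts, and all 8 passed an adjusted p of 0.05, 6 higher and 2 lower in OC. In this comparison 60.5% of 12671 genes tested passed, 30.4% higher and 30.1% lower. The libraries of WT OC and WT BMM did not overlap for these 8 genes, which held for 50.3% of genes tested. Slit3 had 1 count in all in each of the WT marrow groups and was not tested.

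Sphk1 (sphingosine kinase 1, chr11:116530925-116536674, GRCm38) makes S1P. In WT BMM its lowest, median and highest libraries had 0.286, 0.386 and 0.951 CPM. In WT OC they had 16.7, 17.6 and 18.9 CPM. Every WT OC library was above every WT BMM library, and the means were 17.7 ± 0.848 and 0.490 ± 0.247 CPM (SD, n = 6 each). The fitted log2 fold change of OC over BMM was 5.14, with an SE of 0.50 and an adjusted p of 1.61e-09 in edgeR.

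Lif, a cytokine of the interleukin-6 family (chr11:4257557-4272514), went from a single count over the 6 WT BMM libraries to 23.2, 28.2 and 32.8 CPM (lowest, median and highest) in WT OC. The ratio of summed counts was 3203, with a 95% exact interval of 574 to 126550 that covers counting error only. The adjusted p was 1.11e-12. The fitted log2 fold change of 10.83 depends on the prior count and is not a bound.

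Cthrc1 (chr15:39076932-39087121) was at 0, 0.0270 and 0.305 CPM (lowest, median and highest) in WT BMM and at 10.5, 11.95 and 12.5 CPM in WT OC. The groups were far apart (log2 fold change 6.62, SE 0.65, adjusted p 2.27e-09). WT BMM held 13 Cthrc1 counts in all, so the size of the change rests on few counts. Leaving out a library gave 6.35 to 7.34. In WT OC the osteoblast markers were at 12.5 to 15.1 summed CPM, no higher than the 10.2 to 27.5 of WT BMM, and Alpl, Bglap and Sp7 had at most 3 counts in every library. Of the 3 osteoblast markers that could be tested, 1 was higher and 2 were lower in WT OC.

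Sema4d (semaphorin 4D, chr13:51685529-51793747) was already abundant in WT BMM, at 267, 280 and 316 CPM (lowest, median and highest). It rose to 637, 720 and 787 CPM in WT OC, above all WT BMM libraries (log2 fold change 1.32, SE 0.09, adjusted p 2.07e-13). Pdgfb, which encodes the B chain of PDGF (chr15:79995874-80014977), rose from 7.28, 8.32 and 10.1 CPM to 21.6, 26.3 and 29.3 CPM. The groups did not overlap (log2 fold change 1.59, SE 0.13, adjusted p 1.81e-11).

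Of the receptors, S1pr1 (chr3:115710433-115715072) fell from 175, 193 and 209 CPM (lowest, median and highest) in WT BMM to 20.8, 22.5 and 25.9 CPM in WT OC. WT OC was the lowest of all 6 groups with no overlap (log2 fold change -3.06, SE 0.08, adjusted p 1.33e-21). S1pr2 (chr9:20962361-20976781) fell from 108, 119 and 131 CPM to 59.2, 61.5 and 69.1 CPM, again the lowest group (log2 fold change -0.93, SE 0.07, adjusted p 5.98e-12). In the same comparison all 6 macrophage markers were lower in WT OC (median log2 fold change -1.84), and their part in the falls of S1pr1 and S1pr2 was not tested. Pdgfrb (chr18:61045150-61085061), the receptor of PDGF-BB, was near the limit of detection, with 6 counts over the WT BMM libraries and 51 over WT OC. The ratio of summed counts was 8.16 (95% exact interval 3.501 to 23.3), and the adjusted p was 0.00435.

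Set on a common scale per transcript length (deposited TPM), the most abundant of the 9 transcripts in WT OC was Sema4d, at 270 TPM (229 to 317 over the 6 libraries). S1pr2 followed at 36.3 TPM. Cthrc1 at 18.8, Sphk1 at 16.6, Pdgfb at 14.4, S1pr1 at 12.5 and Lif at 11.4 TPM came next, and each overlapped its neighbour in this order. In WT BMM the leaders were Sema4d at 102 and S1pr1 at 96.0 TPM, which overlapped, then S1pr2 at 63.5 TPM. The S1pr2 transcript in the files is 2815 bases long and the annotated one 6394, so its TPM depends on which length is right.

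In null cells the same culture with RANK-L left 7 of the 8 tested genes short of the threshold, while 6 of 8 osteoclast markers were higher in null OC than in null BMM (median log2 fold change 1.65). The exception, Sema4d, rose by 0.32 on the log2 scale (SE 0.09, adjusted p 0.0169). In this comparison 12.9% of all genes tested passed, 6.77% higher and 6.08% lower. Null BMM and null OC overlapped for all 9 genes, where 2.23% of genes tested had groups that did not overlap. The Sema4d call rested on null BMM replicate 2, without which the change was 0.27 and the adjusted p 0.0521.

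Sphk1 had 0.218, 0.566 and 1.19 CPM (lowest, median and highest) in null BMM and 0, 0.486 and 3.53 CPM in null OC, where the 3.53 CPM of replicate 6 stood apart. Its change was 0.47 (SE 0.55, adjusted p 0.611), and -0.48 without that library. Lif had 0, 0.108 and 1.07 CPM in null BMM and 0, 0.247 and 0.773 CPM in null OC. Cthrc1 had 0.859, 1.49 and 1.81 CPM in null BMM and 0.250, 0.649 and 5.63 CPM in null OC. The groups overlapped for each of these genes. S1pr1 averaged 124 ± 4.64 CPM in null BMM and 124 ± 17.5 CPM in null OC (log2 fold change 0.00, SE 0.08), where WT cells had lost most of it. S1pr2 averaged 122 ± 13.1 and 137 ± 10.4 CPM (0.18, SE 0.07, adjusted p 0.0857).

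**Figure D2:**
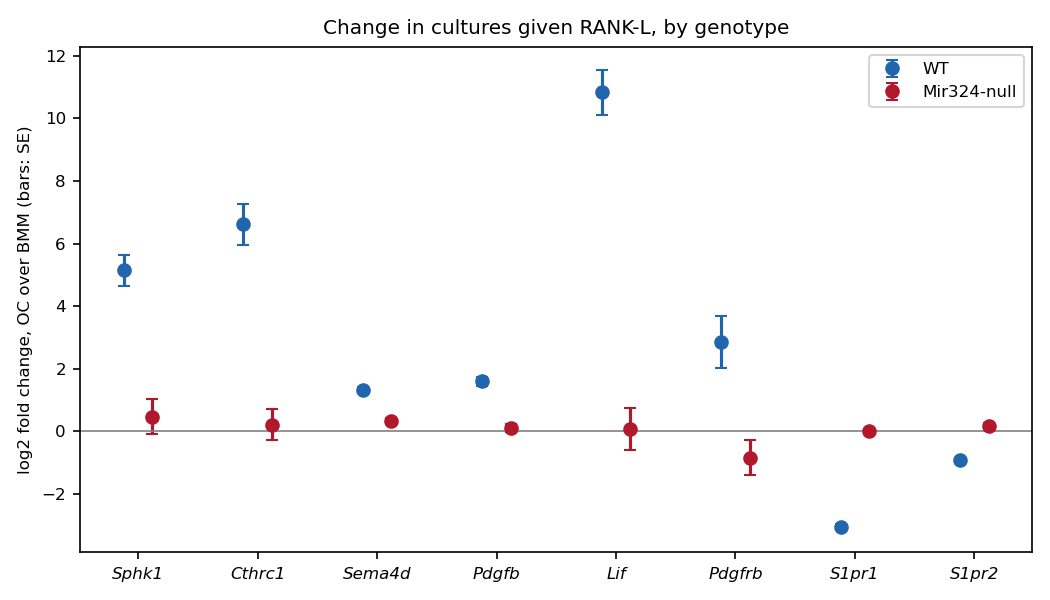
The log2 fold change of OC over BMM is plotted for the 8 tested genes in WT (blue) and null (red) cells, with bars for the SE. WT values run from -3.06 for S1pr1 to 10.83 for Lif, and null values from -0.84 for Pdgfrb to 0.47 for Sphk1.

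The responses of the genotypes differed by the interaction test for all 8 genes tested, and for 51.4% of all genes (25.3% higher and 26.1% lower in null). The null response was the smaller for 6 genes and the more positive for S1pr1 and S1pr2. On the log2 scale the null response minus the WT response was -4.67 for Sphk1 (SE 0.76, adjusted p 1.23e-05), -6.41 for Cthrc1 (SE 0.85), -1.0 for Sema4d (SE 0.12) and -1.50 for Pdgfb (SE 0.18). For S1pr1 it was 3.07 (SE 0.11, adjusted p 3.22e-18) and for S1pr2 1.11 (SE 0.10). Osteoclast markers moved the same way, 7 of 8 lower by the interaction test, and all 6 macrophage markers were higher. Their part in the result was not tested.

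The next comparison set null against WT within the cultures given RANK-L. All 5 ligand-side genes tested were lower in null OC, and both S1P receptors were higher. Of 7 genes tested 7 passed, 5 lower and 2 higher, where 65.5% of 12129 genes passed, 33.1% lower and 32.4% higher. The 7 genes had groups that did not overlap, as did 45.4% of genes tested. Slit3 had no count in null OC and 1 in WT OC. Pdgfrb had 75 counts in null OC and 51 in WT OC, and neither gene passed the filter.

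The Sphk1 libraries of null OC, at 0 to 3.53 CPM, were all below the 16.7 of the lowest WT OC library (log2 fold change -4.33, SE 0.50, adjusted p 2.66e-06). Without null OC replicate 6 the change was -5.24. That library also had the highest sums of osteoclast markers (708) and of osteoblast markers (267) among null OC, and the part of these in its Sphk1 and Cthrc1 levels was not tested. Lif averaged 0.304 ± 0.310 CPM in null OC, and 28.0 ± 3.29 CPM in the WT cultures (-6.29, SE 0.33, adjusted p 6.73e-11), and 2 of the 6 null libraries had no count. Cthrc1 averaged 1.64 ± 2.05 against 11.7 ± 0.696 CPM (-2.88, SE 0.50, adjusted p 1.42e-04, and -3.68 without replicate 6).

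Sema4d and Pdgfb, which WT BMM already expressed, were also lower in null OC. Sema4d had 294, 351 and 401 CPM (lowest, median and highest) in null OC, all under the 637 of the lowest WT OC library (-1.03, SE 0.07, adjusted p 2.69e-09). Pdgfb had 9.46, 14.02 and 15.9 CPM against at least 21.6 CPM in WT OC (-0.93, SE 0.13, adjusted p 8.65e-06). S1pr1 had 97.0, 126 and 142 CPM in null OC, above the 25.9 of the highest WT OC library (2.43, SE 0.10, adjusted p 1.03e-12). S1pr2 had 126, 135 and 153 CPM against at most 69.1 CPM (1.15, SE 0.06, adjusted p 6.37e-11). All 8 osteoclast markers were lower in null OC (median log2 fold change -7.28), 3 of 6 macrophage markers were higher and 1 lower. Their part in the 7 gene changes was not tested.

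Reads were also compared between the transcripts of Lif and Sphk1, because both genes went from near 0 to a measurable level. In WT OC the transcript Lif-202 averaged 7.91 ± 1.66 TPM and Lif-201 3.48 ± 1.22 TPM. Lif-202 thus held 59.1% to 82.9% of the gene's TPM per library. In WT OB the levels were 2.92 ± 1.08 TPM for Lif-202 and 3.15 ± 0.695 TPM for Lif-201, and the share of Lif-202 was 20.1% to 59.7%. In WT BMM, null BMM and null OC, Lif-202 was listed at 0 in every library. Of Sphk1, the transcripts Sphk1-204 (4.75 ± 1.21 TPM) and Sphk1-203 (2.80 ± 1.97 TPM) led in WT OC, and Sphk1-205 (5.86 ± 1.75 TPM) led in WT OB. These splits are estimates among transcripts that share most of their sequence, and depend on the quantifier.

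**Figure D3:**
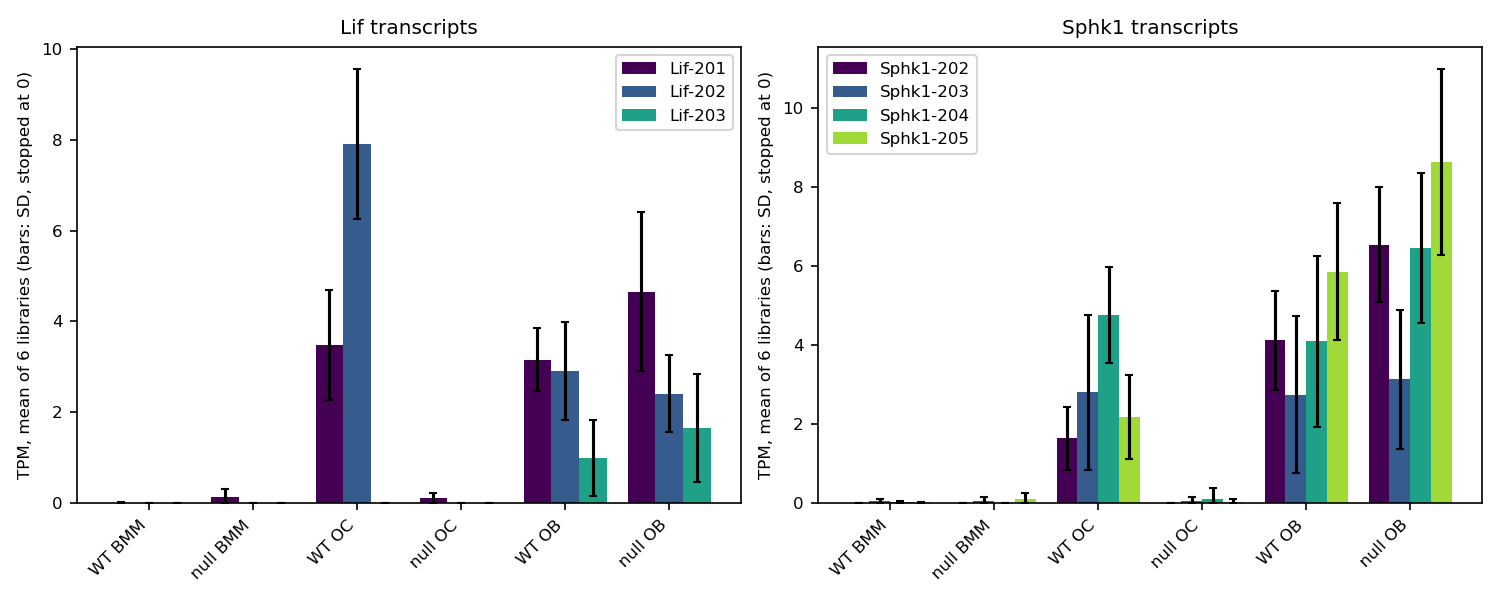
Bars are the mean TPM of 6 libraries for 3 transcripts of Lif (left) and 4 of Sphk1 (right) in the 6 groups, with the SD as error bars stopped at 0. Lif-202 is the tallest Lif bar in WT OC, at 7.91 TPM, and both genes have nearly no TPM in BMM of both genotypes and in null OC.

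The windows from 250 bases before to 50 bases after an annotated start are shown for these genes, since they moved together. The motifs searched on both strands were TGGAAA (the core bound by NFAT factors), TGANTCA (AP-1) and CACGTG (E-box). They occur in 21.4%, 7.81% and 7.15% of 32851 such windows in RefSeq (GRCm38.p6). Matches are in capitals, and those shown do not overlap each other.
Lif (chr11:4257318-4257617, plus strand, start 11 bases from that of Lif-202; 1 TGANTCA): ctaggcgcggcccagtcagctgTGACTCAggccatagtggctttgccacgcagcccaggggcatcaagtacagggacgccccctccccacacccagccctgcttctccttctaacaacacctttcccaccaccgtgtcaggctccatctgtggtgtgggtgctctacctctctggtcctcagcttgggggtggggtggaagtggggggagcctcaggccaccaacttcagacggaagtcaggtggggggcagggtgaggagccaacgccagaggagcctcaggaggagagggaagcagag
Sphk1, start of Sphk1-203 (chr11:116531661-116531960, plus strand; 1 TGANTCA): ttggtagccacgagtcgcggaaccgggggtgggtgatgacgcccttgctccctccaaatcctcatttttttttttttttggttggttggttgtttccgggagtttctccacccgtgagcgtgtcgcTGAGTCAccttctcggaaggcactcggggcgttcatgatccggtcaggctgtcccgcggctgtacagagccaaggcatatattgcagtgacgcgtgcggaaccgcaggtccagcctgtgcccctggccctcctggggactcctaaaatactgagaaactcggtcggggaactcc
Sphk1, start of Sphk1-204 (chr11:116532194-116532493, plus strand; 1 TGGAAA as its reverse complement and 1 CACGTG): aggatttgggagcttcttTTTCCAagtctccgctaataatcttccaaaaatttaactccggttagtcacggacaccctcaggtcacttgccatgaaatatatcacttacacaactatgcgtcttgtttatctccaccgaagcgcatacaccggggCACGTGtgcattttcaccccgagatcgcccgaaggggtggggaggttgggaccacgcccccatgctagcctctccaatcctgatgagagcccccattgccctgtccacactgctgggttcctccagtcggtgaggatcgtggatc
Windows of 5 of the 9 genes were searched, 11 in all. Of the 8 not shown, 3 were of Sphk1. Among these, 2 overlap the Sphk1 windows shown and hold the same matches (TGANTCA in 1, and TGGAAA with CACGTG in 1). The third, at the start of Sphk1-210 (0 TPM in WT OC), held 1 TGGAAA. Of the 3 of Sema4d, 2 held a match: TGANTCA at the start of Sema4d-206 and TGGAAA at that of Sema4d-212. These transcripts were at 0 and 0.686 TPM in WT OC. The S1pr2 and Slit3 windows held none of these letters, which says nothing of the factors.

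In BMM, without RANK-L, fewer of the genes were measurable. Of 5 genes tested, Cthrc1 and Pdgfb were higher and S1pr1 was lower in null BMM, and Sema4d and S1pr2 did not pass, where 52.4% of 11935 genes passed, 27% higher and 25.3% lower. The libraries did not overlap for 3 of these 5 genes, against 30.9% of all genes tested. Cthrc1 stood at 0.859 CPM or more in every null BMM library and at 0.305 or less in every WT BMM library (3.55, SE 0.56, adjusted p 6.39e-05). It had 151 counts over null BMM and 13 over WT BMM, and leaving out a library gave 3.28 to 4.26. Pdgfb had 10.4, 12.3 and 16.1 CPM in null BMM (lowest, median and highest), above the 10.1 of the highest WT library (0.58, SE 0.12, adjusted p 9.23e-04). The 2 of 4 megakaryocyte and platelet markers that could be tested were higher in null BMM too, and their part in the Pdgfb value was not tested. S1pr1 had 117, 125 and 130 CPM, below the 175 of the lowest WT library (-0.63, SE 0.06, adjusted p 3.07e-07). In this comparison 4 of 6 macrophage markers were lower and 1 was higher (median -0.85), and their part in the S1pr1 value was not tested. Sema4d averaged 280 ± 40.7 against 286 ± 17.7 CPM (-0.02, SE 0.09), and S1pr2 122 ± 13.1 against 118 ± 8.05 CPM (0.05, SE 0.08).

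The other 4 genes had few counts in BMM and did not pass the filter. Sphk1 had 70 counts over null BMM and 57 over WT BMM, and Slit3 had 8 and 1. Pdgfrb had 128 and 6, and Lif had 36 and 1, with 13 and 19 of the 36 in null BMM replicates 1 and 6. In a fit of all 36 libraries Pdgfrb (4.30, adjusted p 1.72e-06), Lif (4.46, adjusted p 0.00312) and Slit3 (2.38, adjusted p 0.0496) were called higher in null BMM, on counts this low.

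Cthrc1 is also a product of bone-forming cells, and its level in the marrow cultures is plotted against the osteoblast markers. Among the 12 null marrow libraries the lowest Cthrc1 level (0.250 CPM, null OC replicate 5) came with an osteoblast marker sum of 55.5 CPM and the highest (5.63 CPM, null OC replicate 6) with the highest sum, 267 CPM. Others did not follow that order: null BMM replicate 3 had the lowest sum (53.1 CPM) with 1.52 CPM of Cthrc1, and null OC replicate 1 a sum of 102 CPM with 0.637 CPM. Cthrc1 and Col1a1 were both higher in null BMM than in WT BMM, the latter at means of 63.1 and 15.3 CPM. Bglap and Sp7 had at most 3 counts in every null marrow library. The sum of the pericyte and smooth muscle markers was higher in null BMM too, but the single markers were split. Of the 2 that could be tested, 1 was higher and 1 lower (median log2 fold change -0.57). Acta2 had a mean of 20.5 CPM in null BMM against 1.845 in WT BMM, and Cspg4 0.292 against 7.32. The part of RNA from osteoblast-lineage cells or pericytes in the Cthrc1 and Pdgfrb levels of null BMM was not tested. For scale, Cthrc1 averaged 898 CPM in WT OB.

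**Figure D4:**
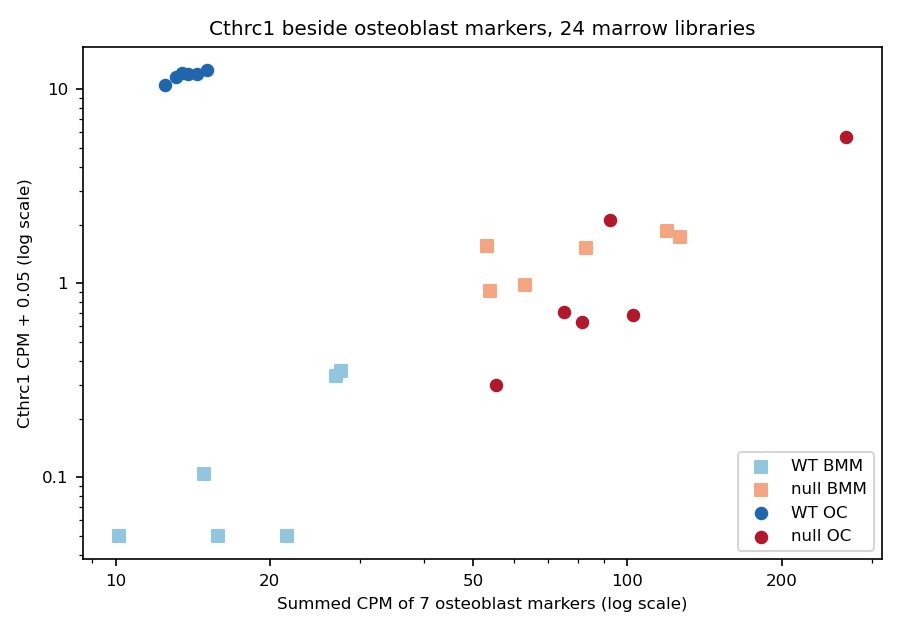
Each point is 1 of the 24 marrow libraries, with the summed CPM of 7 osteoblast markers on the x axis and Cthrc1 CPM plus 0.05 on the y axis, both on log axes. WT OC libraries combine the highest Cthrc1 (10.5 to 12.5 CPM) with low marker sums (12.5 to 15.1 CPM), and null OC replicate 6 lies at the upper right.

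In the osteoblast cultures, Slit3 and Pdgfrb were higher in null cells with no overlap between the groups, Sema4d and Sphk1 were higher with overlap, and S1pr1 was lower with no overlap. Of 9 genes tested 5 passed, 4 higher and 1 lower, where 32.5% of 13614 genes passed, 15.5% higher and 16.9% lower. The groups did not overlap for 3 genes, against 15.8% of genes tested. Slit3, a secreted guidance ligand (chr11:35121224-35708507), had 5.79, 7.04 and 8.86 CPM (lowest, median and highest) in WT OB and 11.4, 15.99 and 17.9 CPM in null OB (log2 fold change 1.07, SE 0.13, adjusted p 5.06e-05). Pdgfrb had 107, 128 and 149 CPM in WT OB and 161, 178 and 207 CPM in null OB (0.49, SE 0.08, adjusted p 4.46e-04). With an offset for transcript length the Pdgfrb change was 0.23 with an adjusted p of 0.0709.

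Sema4d averaged 105 ± 17.0 CPM in null OB and 72.3 ± 8.69 CPM in WT OB (0.53, SE 0.11, adjusted p 0.00183). S1pr1 averaged 68.5 ± 8.22 against 86.0 ± 5.69 CPM (-0.33, SE 0.08, adjusted p 0.00483), a change of -0.15 that did not pass on log2 TPM. Sphk1 averaged 34.5 ± 4.82 against 27.1 ± 5.38 CPM (0.34, SE 0.12, adjusted p 0.0448). For Sphk1, an adjusted p over 0.05 was found without any 1 of WT OB replicates 2 to 6 or null OB replicates 1, 2, 3 or 6, for example 0.28 with 0.0935 without null OB replicate 6. The fit of all 36 libraries gave 0.35 with an adjusted p of 0.359. Pdgfb (0.32, SE 0.14, adjusted p 0.0843), Lif (0.03, SE 0.21), Cthrc1 (-0.09, SE 0.09) and S1pr2 (-0.11, SE 0.06) did not pass. Pdgfb did pass on log2 TPM (0.49, adjusted p 0.0158) and without null OB replicate 2 (0.40, adjusted p 0.0369). In null OB 3 of 8 osteoclast markers, 4 of 7 osteoblast markers and 2 of 5 pericyte and smooth muscle markers were higher, and 5 of 6 macrophage markers were lower. The summed osteoblast markers did not overlap, at 54031 to 78140 CPM in WT OB and 96271 to 115910 CPM in null OB. The part of these markers' cells in the Slit3, Pdgfrb, Sema4d, Sphk1 and S1pr1 changes was not tested.

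**Figure D5:**
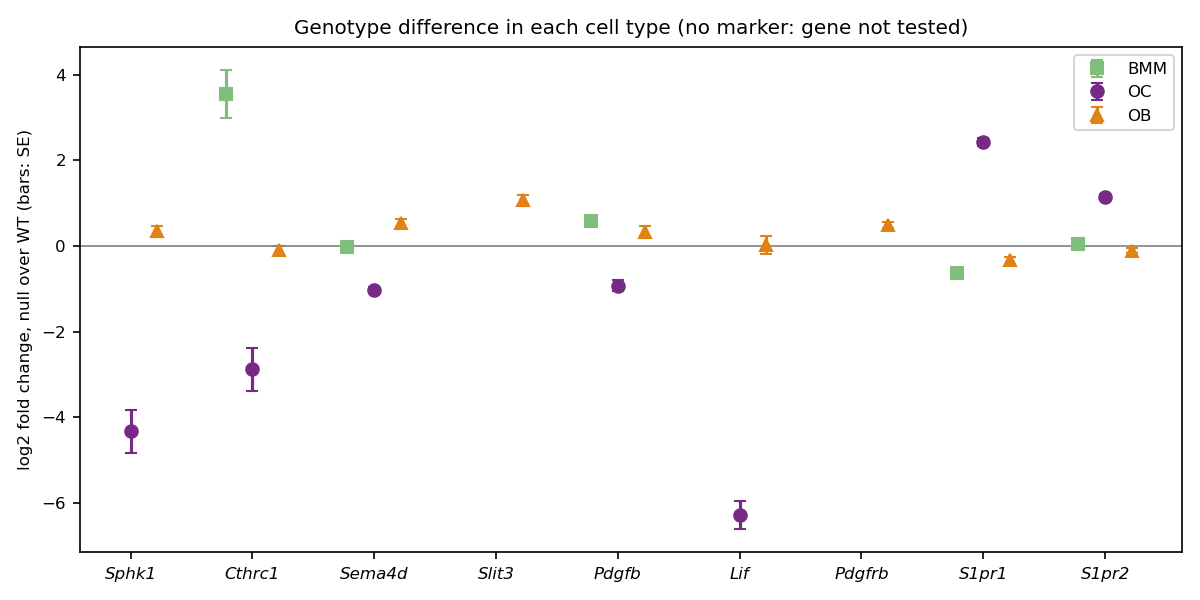
The log2 fold change of null over WT is plotted for the 9 genes in BMM (squares), OC (circles) and OB (triangles), with bars for the SE; a gene without a marker was not tested there. The OC values run from -6.29 for Lif to 2.43 for S1pr1, and the OB values from -0.33 for S1pr1 to 1.07 for Slit3.

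The genotype effects in OB and OC were then tested against each other in a fit of all 36 libraries. For 7 of 9 genes they differed, where 55.3% of 14278 genes did, 27.8% with the more positive and 27.4% with the more negative effect in OB. The effect was more positive in OB for Sphk1 (difference 4.69 on the log2 scale, SE 0.45), Cthrc1 (2.85, SE 0.38), Sema4d (1.58, SE 0.14), Pdgfb (1.27, SE 0.19) and Lif (6.34, SE 0.51). It was more negative for S1pr1 (-2.75, SE 0.11) and S1pr2 (-1.25, SE 0.09). The differences for Slit3 (2.28, SE 1.64) and Pdgfrb (-0.15, SE 0.49) did not pass, and both genes had few counts in OC. On log2 TPM the Slit3 difference passed (1.58, adjusted p 6.76e-05).

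Which side of the osteoclast and osteoblast pair held each transcript was read from the WT groups. Cthrc1, Slit3 and Pdgfrb were far higher in OB than in OC, Sema4d and Pdgfb were higher in OC, and both S1P receptors were higher in OB than in OC. All 9 genes passed in WT OB against WT OC, 6 higher and 3 lower in OB, where 77.9% of 14278 genes passed (41.3% higher, 36.7% lower). All 9 also passed in WT OB against WT BMM, 5 higher and 4 lower, where 76.8% did (41.5% higher, 35.3% lower). In these comparisons 67.5% and 64.3% of genes had groups that did not overlap, as did all 9 genes in both.

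Cthrc1 averaged 898 ± 81.7 CPM in WT OB, a log2 fold change of 6.26 over WT OC (SE 0.27, adjusted p 1.86e-20). At 1347 TPM it was the most abundant of the 9 transcripts in WT OB, ahead of S1pr2 at 51.8 TPM. Slit3 had 829 counts over WT OB and 1 over WT OC, a ratio of summed counts of 865 (95% exact interval 155 to 34199). In null cells it had 1892 counts over OB and none over OC, at least 549-fold higher when null OC is set to 3 counts over the group. The exact 95% interval of that ratio starts lower, at 446. Pdgfrb was higher in WT OB than in WT OC by 8.21 (SE 0.30), and its ratio to WT BMM in summed counts was 2468 (95% exact interval 1134 to 6727).

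Sema4d in WT OB was below WT OC, at a log2 fold change of -3.31 (SE 0.10) and Pdgfb by -2.11 (SE 0.14). S1pr1 was higher by 1.89 (SE 0.08) and S1pr2 by 0.60 (SE 0.06). Lif averaged 15.7 ± 2.06 CPM in WT OB and 28.0 ± 3.29 CPM in WT OC (-0.83, SE 0.28, adjusted p 0.00863). DESeq2 gave -0.75 with an adjusted p of 0.205, and log2 TPM -0.69 with 0.0671. Sphk1 was higher in WT OB by 0.62 (SE 0.27, adjusted p 0.0356), a call lost on log2 TPM (0.42, adjusted p 0.398), with DESeq2 (0.69, adjusted p 0.123), the length offset (0.55, adjusted p 0.0601) and no filter (0.62, adjusted p 0.0513). It was also lost without WT OC replicate 1, 2 or 5 or WT OB replicate 1 or 2 (0.52 with 0.0899 without WT OB replicate 1). The osteoclast markers summed to a median of 4685 CPM in WT OB and 30454 CPM in WT OC. The part of the osteoclasts and macrophages of the OB cultures in their Sphk1, Lif, Sema4d, Pdgfb and S1P receptor levels was not tested.

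The partners of these ligands and receptors were followed through 58 genes in 7 lists, of which 38 could be tested for the RANK-L response. In WT, 12 rose and 14 fell, where 60.5% of all genes tested passed. In null cells 3 of 38 passed, all lower, where 12.9% of all genes passed: the S1P phosphatase Sgpp1 (-0.59), the Sema4D receptor Cd72 (-0.20) and the growth factor Igf1 (-0.21). By the interaction test 14 of the 38 were more positive and 12 more negative in null, where 51.4% of all genes differed. The median log2 change over all genes tested lay between -0.03 and 0.08 in each of the comparisons. In OB, the 4421 calls over all genes between genotypes fell to 2094 with an offset for transcript length. The lists were not run with that offset.

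In the S1P list (median -0.63 in WT, 1 higher and 3 lower of 6 tested) the exporter Spns2 rose with Sphk1. Its mean rose from 0.109 CPM in WT BMM to 19.6 CPM in WT OC, and null OC had 0.151 CPM. The change was 7.36 on the log2 scale in WT (SE 0.41, adjusted p 5.93e-15) and -6.78 between null and WT OC (SE 0.36). Sgpp1 fell in WT by -0.93. In WT OB the receptor S1pr3 averaged 109 CPM, against 0.323 CPM in WT OC (8.39, SE 0.22).

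In the list of Sema4D receptors and effectors (median 0.01, 2 higher and 1 lower of 7) the receptor tyrosine kinase Met rose in WT from 0.637 to 64.5 CPM (6.63, SE 0.26), while null BMM and null OC averaged 15.8 and 16.6 CPM. The osteoblast receptor Plxnb1 averaged 3.59 CPM in WT OB and 8.99 CPM in null OB (1.30, SE 0.26, adjusted p 0.00165), and had at most a mean of 0.0457 CPM in the marrow groups. Erbb2, which pairs with plexin-B1, averaged 16.9 CPM in WT OB against 0.0849 in WT OC (7.55, SE 0.41). In null OB this list had 4 of 9 higher and a median of 0.28, where 15.5% of all genes tested were higher.

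Of the Slit and Robo genes (median 0.35, 1 higher and 2 lower of 4 tested), Srgap3, which encodes a GTPase-activating partner of Robo, rose from 3.499 to 50.3 CPM in WT and averaged 3.03 CPM in null OC (-4.06, SE 0.19). Robo1 averaged 35.8 CPM in WT OB and Robo2 4.65 CPM. In null BMM Robo2 averaged 1.93 CPM, and it had no count in WT BMM. In null OB, where 15.5% of all genes tested were higher, 3 of 7 genes of this list were (median 0.51), Srgap1 by 1.09 (SE 0.17) and Srgap3 by 0.55 (SE 0.15) among them.

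Both other genes tested in the PDGF list changed with RANK-L in WT. Pdgfa, the A chain, rose from 10.9 to 62.5 CPM (2.52, SE 0.11) and Pdgfc fell by -1.67 (SE 0.25). Pdgfa was lower in null OC by -1.86 (SE 0.10). The α receptor Pdgfra averaged 53.6 CPM in WT OB and 77.2 CPM in null OB (0.52, SE 0.15, adjusted p 0.0163), the direction of Pdgfrb, and Pdgfd was lower in null OB by -0.63 (SE 0.18).

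In the LIF and gp130 list (median -0.49, 4 lower of 6 tested), the receptor Lifr fell in WT from 28.9 to 6.12 CPM (-2.24, SE 0.31) and the related cytokine Osm by -2.22 (SE 0.15). The receptor was highest in the OB cultures, at 151 CPM in WT and 321 CPM in null (1.09, SE 0.17, adjusted p 5.64e-04). Socs3, which is induced by gp130 signalling and restrains it, averaged 5.21 CPM in WT macrophages and 6.17 CPM in WT OC. It was at 53.8 and 61.8 CPM in null BMM and null OC (3.38 and 3.33, SE 0.12 and 0.14).

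Among the Wnt genes listed with Cthrc1 (median 0.51, 2 higher of 4 tested) the receptor Fzd5 rose in WT by 1.17 (SE 0.26) and was lower in null OC by -1.37 (SE 0.22). Wnt5a and its receptor Ror2 averaged 53.7 and 13.0 CPM in WT OB, and 0.178 and 0 CPM in WT OC. Of the other coupling factors (median 1.42, 5 higher and 3 lower of 9), the ephrins Efnb2 and Efna2 rose in WT by 4.52 (SE 0.52) and 3.75 (SE 0.29). Efnb2 was lower in null OC than in WT OC by -5.69 (SE 0.49). In that comparison 5 of the 9 other coupling factors tested were higher and 4 were lower. Over all lists 17 of 35 genes tested were higher and 13 lower, where 32.4% and 33.1% of all genes tested were. The complement component C3 was higher in null BMM by 5.03 (SE 0.16) and in null OC by 3.29 (SE 0.11).

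Finally, the genes whose log2 CPM was most like that of each of the 9 over all 36 libraries were listed by Pearson's r among 12638 genes. These values mix cell type and genotype and are given as a description. Sphk1 was most like Rcan2 (0.968) and Kbtbd11 (0.964), Lif like Ablim1 (0.969) and Lctl (0.968), and Cthrc1 like Ehd2 (0.988) and Egfr (0.984). Sema4d was most like Frrs1 (0.988) and Pip5k1c (0.985), Pdgfb like Traf1 (0.947) and Tomm40 (0.946), and Slit3 like Acan (0.992) and Adamts3 (0.991). Of the receptors, S1pr1 was most like Igf1 (0.982) and Rapsn (0.977), S1pr2 like Ggta1 (0.963) and Lhfpl2 (0.956), and Pdgfrb like Cdh11 (0.979) and Ddr1 (0.979). Igf1 showed the order of S1pr1, with a mean of 1221 CPM in WT BMM, 661 CPM in null OC and 128 CPM in WT OC.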

How the data were processed

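Transcript abundances of 36 libraries were deposited, 1 table each. Per the submitters' processing notes the tools were kallisto and DESeq2, with no versions. They name the build GRCh38, a human one, although the deposited transcript identifiers are mouse. Per the file headers, the authors' values are estimated counts and TPM for each transcript; TPM keeps no depth. The strand setting is not given in the sources used here, so reads of Sphk1 and Pdgfb cannot be told apart from those of their antisense genes.

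Of 88198 transcripts, 97.6% matched GENCODE M21 (GRCm38). The rest held 0.606% to 0.96% of counts and were left out. Deposited estimated counts were summed per gene and rounded. Genes were kept by filterByExpr, scaled by TMM and tested with edgeR 4.0.16 (robust quasi-likelihood F test, R 4.3.3), with Benjamini-Hochberg adjustment over all genes tested and a threshold of 0.05. The SE was derived from F. The RANK-L comparisons used 24 libraries, genotype comparisons the 12 of a culture, and the OB comparisons with other cultures all 36. Only the edgeR test was tried on simulated data, with 1 comparison in each fit. CPM used TMM sizes over 36 libraries. The closest replicates differed by more than sampling noise (chi-square 3.34 per gene). Intervals and the floor of 3 counts cover counting error only. The 9 genes, the lists and the tests were chosen with earlier results of these data known. Of each list, up to 2 genes per comparison with the largest change past the threshold and a mean of at least 1 CPM could be named. Likeness used log2 CPM with a prior count of 2. As alternatives, DESeq2 1.42.0, limma 3.58.1 on log2(TPM + 0.1), RLE scaling, a filter at 10 mean counts or none, the replicate number as a block, a length offset (lowess span 0.3), all 36 libraries in 1 fit and leaving out each library were tried.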

Additional observations from a re-analysis of the deposited data

Results flagged for a closer look

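In the 49 groups of 6 libraries that could be tested, 4 held a library far from the other 5. Chance gives this in about 1 of 20 groups of independent, normally distributed values. That rate need not hold here, since some groups had few counts and all genes were read from the same libraries. Null OC replicate 6 was highest for Sphk1 (3.53 CPM) and Cthrc1 (5.63 CPM), null BMM replicate 6 for Slit3 (0.339 CPM, 6 counts) and WT OC replicate 6 for S1pr2 (69.1 CPM).

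The response to RANK-L differed between genotypes by a test of the difference for 8 genes, at -4.67 for Sphk1, -6.41 for Cthrc1, -1.0 for Sema4d, -1.50 for Pdgfb, -3.70 for Pdgfrb, -10.75 for Lif, 3.07 for S1pr1 and 1.11 for S1pr2 (log2, null minus WT). The values of Lif and Pdgfrb depend on the prior count, since WT BMM had 1 and 6 counts. That of Cthrc1 rests on 13 counts in WT BMM, and leaving out a library gave -7.24 to -6.14. The genotype effect differed between OB and OC for 7 genes, by 4.69 for Sphk1, 2.85 for Cthrc1, 1.58 for Sema4d, 1.27 for Pdgfb, 6.34 for Lif, -2.75 for S1pr1 and -1.25 for S1pr2.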

How the results depend on the processing

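Of 549 values of the 9 genes under alternatives other than leaving out a library, 523 kept their direction and side of the threshold, and so did 1027 of 1068 with a library left out. No value past the threshold changed sign. The count of genes past the threshold in null OC against null BMM, 1, was 2 in the fit of all 36 libraries and 0 to 2 with a library left out (0 without null BMM replicate 2, 2 without null BMM replicate 5 or 6, where S1pr2 passed at 0.23 and 0.21). In BMM the count of 3 was 5 without the filter, 5 with DESeq2 and 6 in the fit of all 36 libraries, which kept genes of few counts. 

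The following signs changed, none past the threshold, and the cause was not tested. In null OC against null BMM, log2(TPM + 0.1) gave -0.01 for Sphk1 and -0.05 for Cthrc1, the replicate block -0.07 for Cthrc1 and -0.00 for S1pr1, DESeq2 -0.08 for Lif, the length offset -0.05 and the 36-library fit -0.00 for S1pr1. Leaving out a library there gave -0.48 to 0.74 for Sphk1, -0.62 to 0.43 for Cthrc1, -0.41 to 0.90 for Lif and -0.04 to 0.06 for S1pr1. In BMM, Sema4d was 0.10 with the length offset and -0.07 to 0.03 with a library left out, and S1pr2 was -0.10 on TPM. In OB, Cthrc1 was 0.13 with the length offset and 0.09 on TPM, S1pr2 0.08 on TPM, and Lif -0.04 with the block, -0.10 with the length offset and -0.09 to 0.18 with a library left out. The difference of genotype effects between OB and OC was 0.67 on TPM for Pdgfrb and -0.37 to 0.16 with a library left out.

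Same-numbered libraries deviated together weakly or not at all (correlations -0.131 to 0.104), so the numbers were not used to pair them. Still, 3 of 6 WT BMM libraries correlated best with the WT OC library of their number (correlations -0.038 to 0.0462), and 2 of 6 with that of WT OB. In the other pairs of groups 0 or 1 of 6 did. The replicate block left the counts of the 9 genes past the threshold as they were in every comparison. Over all genes, the 1629 calls in null OC against null BMM fell to 841, 811 and 949 without null BMM replicates 2, 3 and 4 and to 1046 without null OC replicate 3, and the 4421 calls in OB to 2094 with the length offset. RLE scaling moved the median of all genes to 0.14 in WT OB against WT BMM and to 0.13 against WT OC, and TPM moved it to -0.15 in BMM, -0.25 in OC, 0.17 in OB, 0.11 in WT OB against WT BMM and 0.39 for the difference of genotype effects. Depth limits Sphk1, Slit3, Lif and Pdgfrb in BMM, where a group held 1 to 128 counts. It also limits Cthrc1 there, with 13 counts over WT BMM and 151 over null BMM.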
